A study of Mus musculus with 6 samples.

Results

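The transcripts described here encode 9 integrin chains of leukocytes, Itgam, Itgax, Itgal, Itgb2, Itga4, Itga5, Itga6, Itgb1 and Itgb7, and the integrin ligand Icam1. They were taken by gene symbol. All 10 were present among the 52459 genes of the deposited tables, and all 10 were among the 14857 genes with enough reads for a test. RNA had been sequenced from bone marrow derived macrophages of C57BL/6 mice that were grown with GM-CSF, a growth factor under which marrow gives rise to macrophages and other myeloid cells. From day 7 the cultures received either RIP1i or DMSO, the solvent control, overnight, and each treatment gave 3 libraries. The comparison addresses how RIP1i alters the macrophage transcriptome. The labels name neither the compound behind RIP1i nor its dose, and no allele, age or sex of the mice. They do not say whether the replicates were separate cultures or animals, so the p-values cover no more than library-to-library spread, which could be technical.

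Integrins are cell-surface adhesion receptors made of 1 alpha and 1 beta chain, and the pairing sets the ligand. On leukocytes the beta2 chain pairs with alphaL (LFA-1), alphaM (Mac-1, complement receptor of the CD11b/CD18 type) or alphaX (CD11c/CD18), while beta1 pairs with alpha4, alpha5 or alpha6 and beta7 pairs with alpha4. ICAM1 is an immunoglobulin-family ligand for LFA-1 and Mac-1 and is induced by inflammatory signals through NF-kB, a pathway that the RIP1 protein can feed.

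Library totals ran from 40264902 to 44862310 counts, and the 10 transcripts together took between 0.480% and 0.525% of them. The 7 macrophage markers summed to between 42791 and 57161 CPM (counts per library size after TMM scaling) in the 6 libraries. T cell, B cell and NK cell markers summed to at most 3.96, 0.899 and 1.74 CPM, and Gzma had no count, so lymphocyte RNA was near 0. Neutrophil markers summed to 226 to 624 CPM in DMSO and 222 to 656 CPM in RIP1i, and stromal markers to 83.7 to 336 and 74.8 to 222 CPM. Of the same-group library pairs, none agreed within counting noise (chi-square per degree of freedom from 12.4 to 35.2).

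The level of these transcripts spanned more than 2 orders of magnitude. On the FPKM scale (counts per gene length and library size, as deposited), Itgb2 stood highest with a mean of 490 over the 6 libraries, followed by Itgax at 266, Itgam at 197, Itgb1 at 121, Icam1 at 33.1, Itgal at 19.9, Itgb7 at 16.4, Itga5 at 14.4, Itga6 at 5.03 and Itga4 at 2.44. Of the 9 neighbouring pairs in this order, 8 kept it in 6 of 6 libraries with ranges that did not overlap. For each of these 8, an exact 2-sided sign-flip test of the log2 ratio within libraries gave adjusted p = 0.0352 over the 9 pairs. The unadjusted p was the smallest that 6 libraries allow. The order had been set from the means of the same 6 libraries, so these p-values are no independent test of it. They also hold only for FPKM as deposited. Itgb7 and Itga5 were not separated, since Itgb7 was the higher in 4 of 6 libraries (exact p = 0.188). The beta2 chain and its CD11b and CD11c partners had the highest FPKM of these transcripts in these libraries, while LFA-1's alphaL chain stood far below them.

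**Figure D1:**
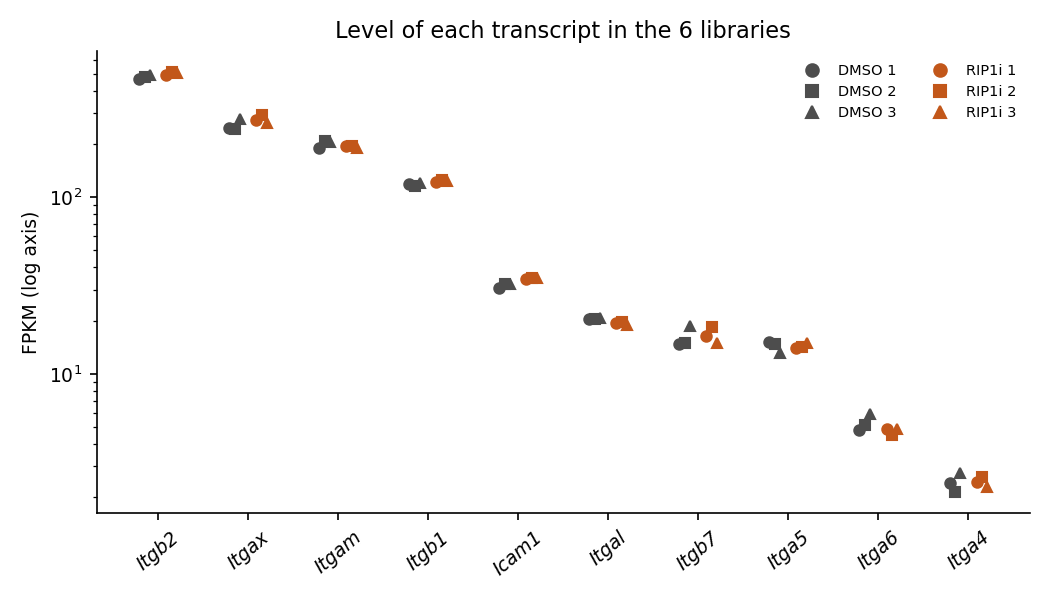
FPKM on a log axis for each transcript, ordered by mean level, with 1 symbol per library (grey DMSO, orange RIP1i, shape by replicate number). Itgb2 lies between 466 and 512 in every library and Itga4 between 2.14 and 2.76, while the symbols of Itgb7 and Itga5 overlap.

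Part of that order rests on the gene length behind the FPKM values. Counts and FPKM together gave a length of 6377 bases for Itgam, against 5024 bases for all exons of the gene in GENCODE M21 and 3701 bases for its longest coding transcript. For Itgax these lengths were 4803, 4803 and 4046 bases. With the length of the longest coding transcript, an alternative chosen after seeing the data, Itgam averaged 339 and Itgax 316, and Itgam was the higher in 5 of 6 libraries (exact p = 0.0938), so which of the CD11 chains was the more abundant per transcript was not settled. On that scale Icam1 averaged 57.0 and Itga6 10.9, both without a change of place.

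The beta2 family is described first. Itgb2 (chromosome 10, 77530252 to 77565708, plus strand, mm10), the shared CD18 chain whose loss causes leukocyte adhesion deficiency, was at 1427.5, 1467 and 1487 CPM in DMSO replicates 1 to 3 and at 1510.5, 1558 and 1545 CPM in RIP1i replicates 1 to 3. Every RIP1i library lay above every DMSO library. The means were 1460.5 ± 30.2 and 1538 ± 24.5 CPM (SD, n = 3 each), and the fitted log2 fold change was 0.074 ± 0.044 (SE; 95% interval -0.028 to 0.18; edgeR adjusted p = 0.805). It was 0.047 without DMSO replicate 1.

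Itgax, Itgam and Itgad lie side by side on chromosome 7, with 11055 bases between Itgam (128062640 to 128118491) and Itgax (128129547 to 128150657) and 3718 bases from there to Itgad. Itgal (127296260 to 127335138) lies on the same arm, 727501 bases before Itgam. All 4 are on the plus strand in mm10. The integrin genes Itgb7 and Itga5 are likewise both on chromosome 15, 1112341 bases apart.

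Itgax, the CD11c chain used to mark dendritic cells and also carried by macrophages grown with GM-CSF, was at 1185, 1173.5 and 1317 CPM in DMSO and at 1323, 1402 and 1279 CPM in RIP1i replicates 1 to 3. The groups overlapped through DMSO replicate 3, which lay above RIP1i replicate 3. The log2 fold change was 0.12 ± 0.063 (SE; 95% interval -0.022 to 0.27; edgeR adjusted p = 0.786). It was 0.076 without RIP1i replicate 2 and 0.044 without both libraries numbered 2, DMSO replicate 2 and RIP1i replicate 2, which stood at the ends of the stromal marker range.

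Itgam, the CD11b chain that binds ICAM1, fibrinogen and the complement fragment iC3b, was at 1209, 1326 and 1307 CPM in DMSO and at 1240, 1240 and 1227 CPM in RIP1i. The RIP1i libraries were nearly equal, and all of them fell inside the DMSO range. The log2 fold change was -0.052 ± 0.050 (SE; 95% interval -0.17 to 0.065; edgeR adjusted p = 0.879), with -0.10 without DMSO replicate 1 and -0.033 without DMSO replicate 2. In GENCODE M21 the gene Gm49368 shares 3450 exonic bases with Itgam on the same strand, and it had no row of its own in the table used here.

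Itgal, the LFA-1 alpha chain, was at 135, 134 and 136 CPM in DMSO and at 128, 128.5 and 126 CPM in RIP1i. The RIP1i libraries all lay below the DMSO libraries, with SDs of 1.12 and 1.33 CPM (n = 3). Both SDs were smaller than counting error alone gives for this gene (1.34% of the mean). The log2 fold change was -0.078 ± 0.033 (SE; 95% interval -0.16 to -0.00038; edgeR adjusted p = 0.777), and leaving out any 1 library kept it between -0.094 and -0.074. Thus the fitted direction of Itgal was opposite to that of the beta2 chain it pairs with, without either passing the test.

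The neighbouring CD11b and CD11c genes went in opposite fitted directions, and their start regions are shown because both belong to abundant transcripts whose shares of the family are compared next. The capitals mark GAGGAA or its reverse complement TTCCTC, the core recognised by the myeloid factor PU.1, which 28.3% of 32851 RefSeq promoters of the same length hold. Each sequence runs 5′ to 3′ from 250 bases before the RefSeq start to 50 bases into the gene (RefSeq, GRCm38.p6).
Itgam (chr7:128062390-128062689, plus strand): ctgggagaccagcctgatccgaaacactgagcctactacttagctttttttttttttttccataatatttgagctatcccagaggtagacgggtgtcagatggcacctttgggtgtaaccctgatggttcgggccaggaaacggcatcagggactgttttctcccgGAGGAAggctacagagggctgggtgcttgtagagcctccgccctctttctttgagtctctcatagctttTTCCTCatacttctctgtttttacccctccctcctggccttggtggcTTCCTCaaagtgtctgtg
Itgax (chr7:128129300-128129599, plus strand): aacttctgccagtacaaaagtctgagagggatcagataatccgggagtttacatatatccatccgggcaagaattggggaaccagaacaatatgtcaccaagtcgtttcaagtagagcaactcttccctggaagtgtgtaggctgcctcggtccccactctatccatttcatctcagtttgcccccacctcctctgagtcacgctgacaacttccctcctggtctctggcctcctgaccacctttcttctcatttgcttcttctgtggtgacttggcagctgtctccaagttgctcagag
Itgam held 3 matches, 84 and 15 bases before the start and at base 33 after it. The Itgax window held no match to these 6 letters, which says nothing about binding of the factor.

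The make-up of the beta2 family was then compared within libraries, per length. The summed FPKM of Itgal, Itgam and Itgax was 97.7%, 98.3% and 103% of the Itgb2 value in DMSO replicates 1 to 3 and 98.9%, 99.1% and 94.4% in RIP1i replicates 1 to 3. This near equality belongs to the deposited scale, since with the longest coding transcript the same ratio ran from 130% to 142%. The log2 ratio did not separate the groups (difference -0.030, exact permutation p = 0.6), and leaving out DMSO replicate 3 or RIP1i replicate 3 brought it to -0.0079 or -0.0071.

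Within that sum the CD11c share was higher in each RIP1i library, in a design too small for the test to pass. Itgax made up 54.0%, 51.7% and 54.9% of it in DMSO and 56.3%, 57.7% and 55.7% in RIP1i, with means of 53.5% ± 1.64 and 56.6% ± 1.01 (SD, n = 3 each). Itgam made up 42.2% ± 1.60 and 39.5% ± 0.931, and Itgal 4.31% ± 0.173 and 3.96% ± 0.0818. All of the RIP1i libraries lay above the DMSO libraries for Itgax and below them for Itgam and Itgal. The log2 ratio of Itgax to Itgam was 0.34 ± 0.099 in DMSO and 0.52 ± 0.060 in RIP1i (SD, difference 0.18, 2-sided exact permutation p = 0.1, the smallest that 3 against 3 libraries allow, adjusted p = 0.12 over 6 measures). These shares and the ratio come from the same counts in few libraries and are not independent of each other. The difference in the log2 ratio was 0.12 without DMSO replicate 2, 0.14 without RIP1i replicate 2 and 0.087 without both. Which chain makes up the larger share belongs to the deposited scale. With the longest coding transcript Itgam averaged 339 and Itgax 316. The Itgax share then differed between the groups by 3.06 percentage points (exact permutation p = 0.1).

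**Figure D2:**
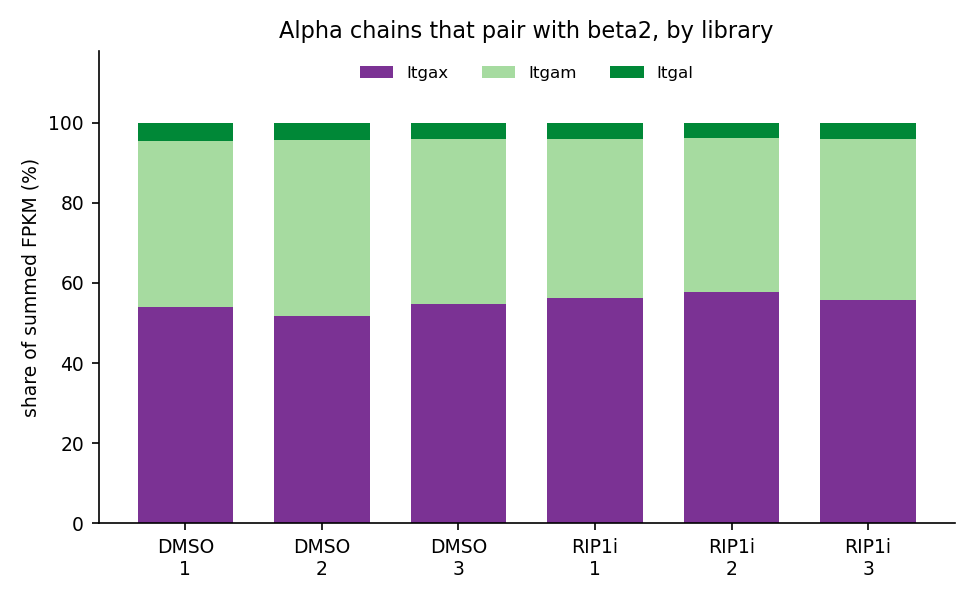
Share of the summed FPKM of the alpha chains that pair with beta2, in each library (bars stacked to 100%; purple Itgax, light green Itgam, dark green Itgal). The Itgax part ends between 51.7% and 54.9% in the DMSO libraries and between 55.7% and 57.7% in the RIP1i libraries. These sizes hold for FPKM as deposited and depend on the gene lengths behind it.

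Among the beta1 and beta7 chains, Itgb1 (chromosome 8, 128685654 to 128733200, plus strand), the common partner of many matrix receptors, was at 484, 476 and 487 CPM in DMSO and at 498, 509 and 505 CPM in RIP1i. Every RIP1i library lay above every DMSO library. Its log2 fold change was 0.063 ± 0.037 (SE; 95% interval -0.023 to 0.15; edgeR adjusted p = 0.805), and 0.033 without both libraries numbered 2.

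Of the alpha chains that join it, Itga6 was fitted lower, and Itga4 and Itga5 stood near 0. No test compared the chains' changes with each other. Itga6 (chromosome 2, 71745616 to 71858416, plus strand), a laminin receptor chain, was at 43.5, 46.6 and 53.5 CPM in DMSO and at 43.9, 40.5 and 44.6 CPM in RIP1i. The groups overlapped, and DMSO replicate 3 stood highest. Its log2 fold change of -0.15 ± 0.080 (SE; 95% interval -0.34 to 0.033) was the largest in size among the 10 transcripts, with an edgeR adjusted p of 0.786, and it ranged from -0.23 (without DMSO replicate 1) to -0.070 (without DMSO replicate 3). Itga5 (chromosome 15, 103344286 to 103366763, minus strand), the fibronectin receptor chain, ranged from 57.9 to 67.8 CPM in DMSO and from 62.5 to 67.3 CPM in RIP1i, with a log2 fold change of 0.0091 (-0.14 to 0.16). Its sign turned with upper-quartile scaling and without DMSO replicate 3 or RIP1i replicate 3.

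Itga4, which binds VCAM1 and fibronectin, and Itgb7, its gut-homing partner, varied more among the libraries of a group than between the groups. Itga4 (chromosome 2, 79255426 to 79333123, plus strand) was at 33.7, 30.0 and 38.4 CPM in DMSO and at 34.5, 36.3 and 32.2 CPM in RIP1i, a log2 fold change of 0.013 (-0.20 to 0.23). Itgb7 (chromosome 15, 102215995 to 102231944, minus strand) was at 40.8, 41.4 and 50.7 CPM in DMSO and at 45.2, 50.4 and 41.2 CPM in RIP1i, a log2 fold change of 0.042 (-0.20 to 0.28). Both were highest in DMSO replicate 3 and RIP1i replicate 2. Both signs turned without DMSO replicate 1, DMSO replicate 2 or RIP1i replicate 2, so neither has a direction here.

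Itgb1 was also set against its alpha partners. The summed FPKM of Itga4, Itga5 and Itga6 was 19.0%, 18.9% and 18.2% of Itgb1 in DMSO and 17.6%, 16.96% and 18.1% in RIP1i replicates 1 to 3. All RIP1i values lay below all DMSO values. The log2 ratio differed by -0.091 (exact permutation p = 0.1, the smallest possible, adjusted p = 0.12) and by -0.057 without both libraries numbered 2. With the beta1 partner Itgav added to the sum the groups overlapped, with a difference of -0.087 (exact permutation p = 0.3). Alpha4 also pairs with beta7, and other alpha chains pair with beta1, so this ratio is not a count of receptors.

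The spread among replicates differed between members, and the values of Itgb7 and Itga4, the most variable, were highest where some other cell markers were highest. Within groups the FPKM of Itgb7 varied by 11.9% (coefficient of variation), that of Itga4 by 10.2%, Itga6 by 8.84%, Itga5 by 6.10% and Itgax by 6.07%, where counting error alone gives from 0.430% to 2.63%. Itgal at 1.4%, Itgb1 at 1.47%, Icam1 at 1.95%, Itgb2 at 2.12% and Itgam at 3.77% varied less.

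DMSO replicate 3 and RIP1i replicate 2, the libraries where Itgb7 and Itga4 peaked, also held the most neutrophil marker RNA, at 624 and 656 CPM summed over 8 genes. The other libraries held between 222 and 464 CPM. S100a8, S100a9, Ngp, Camp, Ltf and Mpo each followed that neutrophil sum, while Ly6g and Elane did not. Ly6g in RIP1i replicate 1 (0.992 CPM) lay above RIP1i replicate 2 (0.926). Elane in DMSO replicate 1 (1.46) and RIP1i replicate 1 (1.59) lay above DMSO replicate 3 (1.41). The same 2 were highest in the sum of 7 dendritic cell markers, at 58.8 and 66.8 CPM against 39.4 to 48.4 CPM elsewhere. Cd209a, Itgae, Ccr7 and Dpp4 each followed that sum, while Xcr1, Flt3 and Zbtb46 did not. In RIP1i replicate 1, Xcr1 stood at 0.223 CPM, above both (0.133 and 0.0950). There Flt3 (0.719) lay above RIP1i replicate 2 (0.689), and Zbtb46 (8.03) above DMSO replicate 3 (7.40). The same 2 libraries were lowest in the sum of 7 stromal markers, at 83.7 and 74.8 CPM against 178 to 336 CPM. Itga6 and Itga5 had other courses: Itga6 was highest in DMSO replicate 3 but lowest in RIP1i replicate 2, and Itga5 was lowest in DMSO replicate 3. The dendritic cell list contains an integrin chain itself, Itgae. The part of these cells in the integrin values was not tested, and in bulk RNA fewer cells of a type and less RNA per cell cannot be told apart.

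**Figure D3:**
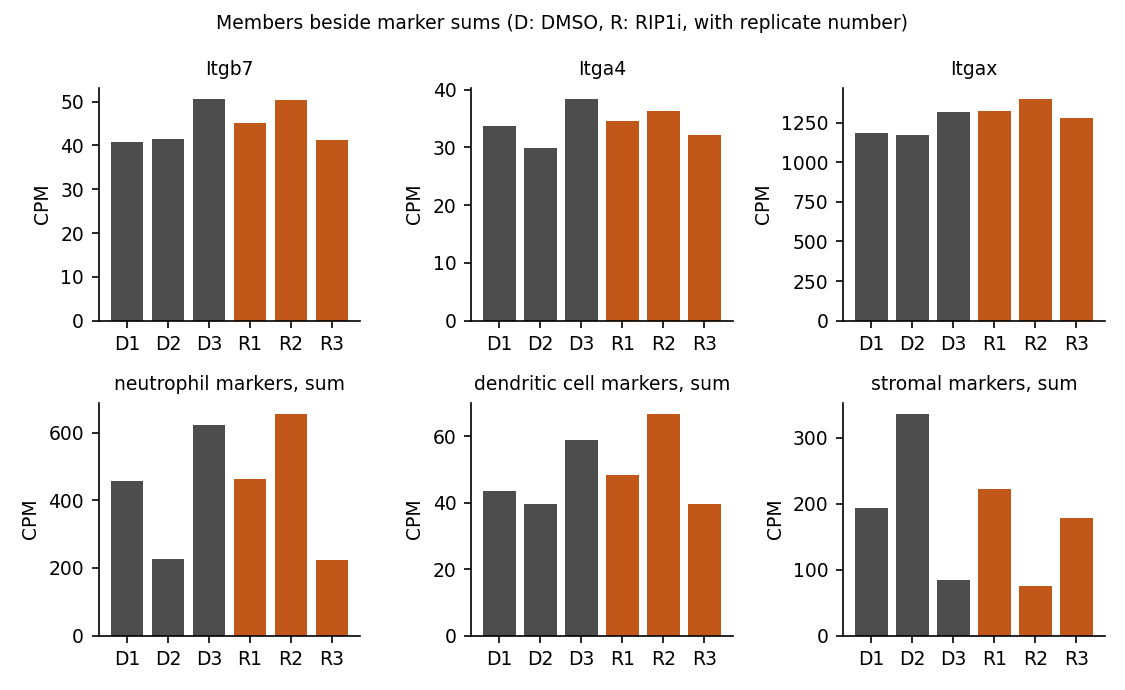
CPM by library for Itgb7, Itga4 and Itgax (top) and summed CPM of neutrophil, dendritic cell and stromal markers (bottom), with grey bars for DMSO (D) and orange bars for RIP1i (R), numbered by replicate. D3 and R2 are the highest bars for Itgb7 (50.7 and 50.4), Itga4 (38.4 and 36.3) and neutrophil markers (624 and 656) and the lowest for stromal markers (83.7 and 74.8).

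Icam1 (chromosome 9, 21015985 to 21028817, plus strand) had the smallest p-value of the 10 transcripts. It was at 134, 140.5 and 140 CPM in DMSO replicates 1 to 3 and at 151, 151 and 153 CPM in RIP1i replicates 1 to 3. The RIP1i values lay closer together than counting error alone gives for this gene (1.28% of the mean). Every RIP1i library lay above every DMSO library, with means of 138 ± 3.65 and 151 ± 1.03 CPM (SD, n = 3 each). This is a ratio of 1.10, or a log2 fold change of 0.13 ± 0.036 (SE; 95% interval 0.048 to 0.22). Icam1 ranked 98th of 14857 genes by p-value, and it did not pass over all genes (edgeR adjusted p = 0.777). Leaving out each library in turn gave 0.099 to 0.14, and without both libraries numbered 2 it was 0.14. The antisense gene Gm47079 shares 511 exonic bases with Icam1 in GENCODE M21, and the strand setting of the counts is not given in the sources used here.

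The start region of Icam1 is shown because NF-kB control of this gene is well known. The capitals mark GGAAATTCC, a form of the site bound by NF-kB, and the TATA sequence TATAAA, both searched on either strand and not overlapping (RefSeq, GRCm38.p6).
Icam1 (chr9:21015690-21015989, plus strand): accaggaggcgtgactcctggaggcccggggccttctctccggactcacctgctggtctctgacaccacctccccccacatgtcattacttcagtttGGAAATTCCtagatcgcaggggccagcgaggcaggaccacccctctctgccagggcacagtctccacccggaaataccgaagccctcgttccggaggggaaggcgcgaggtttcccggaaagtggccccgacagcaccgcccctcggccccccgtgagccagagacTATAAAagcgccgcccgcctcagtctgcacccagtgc
GGAAATTCC lies 153 bases before the RefSeq start and is held by 0.317% of the 32851 promoters of this length (104 of them). TATAAA lies at base 14 after the RefSeq start, which is 32 bases before the start that GENCODE M21 gives, and 13.6% of promoters hold it. RefSeq start regions were found for 7 of the 10 genes, and among these Icam1 alone held GGAAATTCC. Only this exact form of the site was searched. The share of promoters and the absence elsewhere therefore concern these letters, and not NF-kB sites in general. A match is a stretch of letters and shows no binding in these cells.

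**Figure D4:**
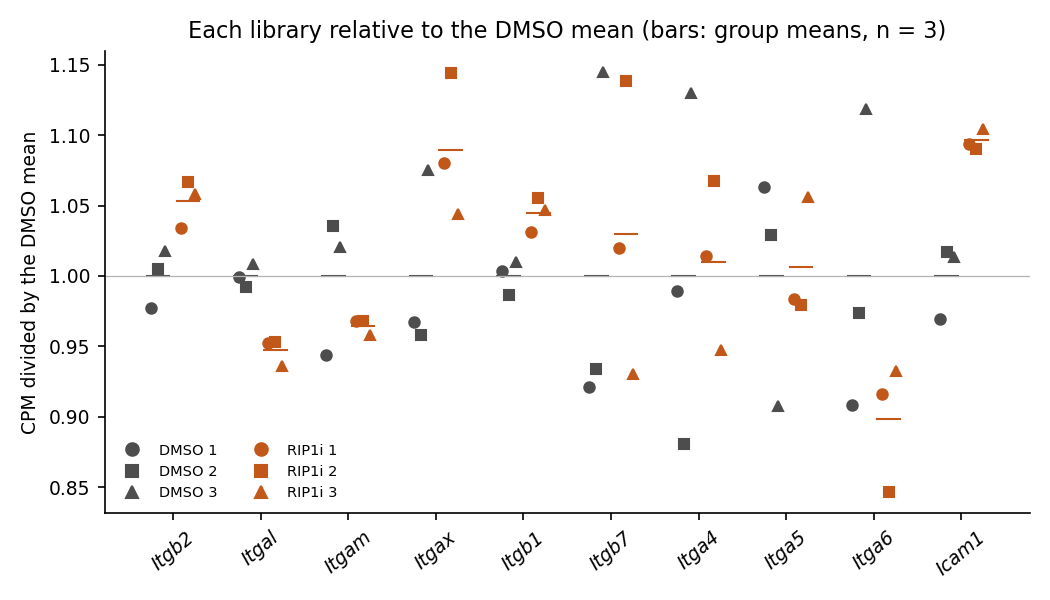
CPM of each library divided by the DMSO mean of that transcript (grey DMSO, orange RIP1i, shape by replicate number; short bars are group means, n = 3). The orange symbols lie above all grey ones for Itgb2, Itgb1 and Icam1 and below all grey ones for Itgal, and the other 6 transcripts overlap.

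Taken over the 10 transcripts, none passed the test for RIP1i against DMSO, and 0 of 14857 genes did (0% called, edgeR adjusted p under 0.05). DESeq2 called 1 gene and limma-voom 0, none of them a member. At an unadjusted edgeR p under 0.05 stood 2 of 10 members, where 923 of all genes (6.21%) did. Icam1 was the higher one (3.59% of all genes) and Itgal the lower one (2.62%). Groups did not overlap for 4 members. Itgb2, Itgb1 and Icam1 were higher in RIP1i, as were 7.36% of all genes, and Itgal was lower, as were 6.18%, with 13.5% in either direction. Of the 10, 7 were fitted higher and 3 lower, where 51% of all genes were fitted higher, and the median log2 fold change was 0.027 against 0.0025 over all genes. Without DMSO replicate 1, DMSO replicate 2, RIP1i replicate 2 or both libraries numbered 2, 5 were fitted higher and 5 lower. Leaving out DMSO replicate 2 brought the median to 0.0063, RIP1i replicate 2 to -0.011, both to -0.0046 and DMSO replicate 3 to 0.075.

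All 10 members had 95% intervals within 1.5-fold in either direction, as did 73.0% of all tested genes, and the lowest bound was that of Itga6 and the highest that of Itgb7. A change beyond that size lies outside the interval for every member, while changes of the size fitted here were not distinguished from the spread between libraries.

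**Figure D5:**
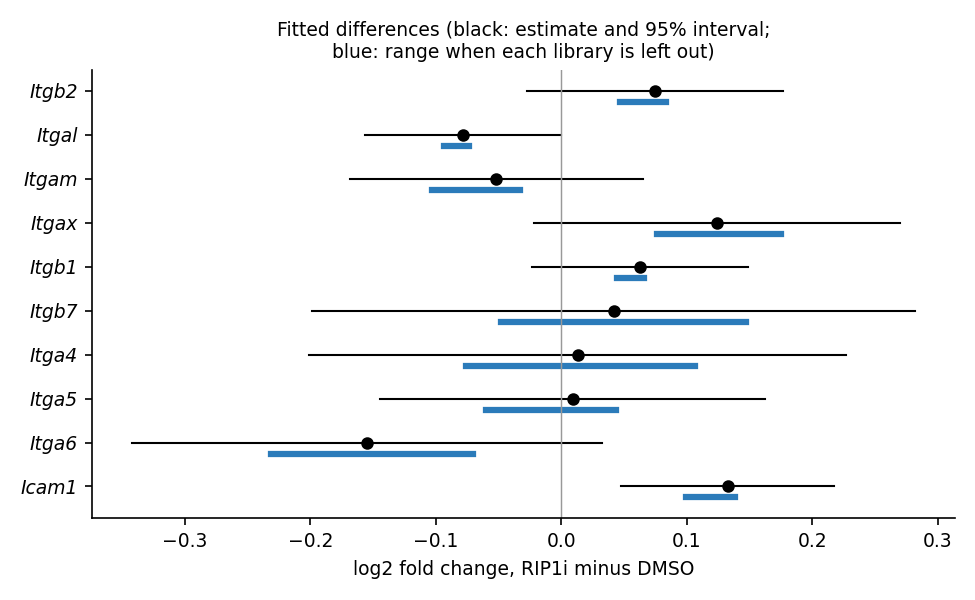
Log2 fold change of RIP1i minus DMSO for each transcript (black point, with its 95% interval as a line) and the range of the estimate when each library is left out in turn (blue bar). The interval of Icam1 (0.048 to 0.22) lies above 0, that of Itgal ends at -0.00038, and the blue bars of Itgb7, Itga4 and Itga5 cross 0.

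Genes that work with these receptors were described from 5 lists. Of 17 other integrin subunits, 12 could be tested, with 4 estimates above 0 and 8 below it, and none passed or reached an unadjusted p under 0.05 in edgeR. Itgb5, which pairs with alphaV to bind vitronectin, was the most abundant of them at a mean of 71.0 FPKM, with a log2 fold change of -0.0061 ± 0.055 (SE). The smallest p belonged to Itga9 at -0.91 ± 0.45, with a mean of only 14.3 counts, followed by Itga7 at 0.51 ± 0.55, Itga1 at 0.057 ± 0.070 and the remaining beta2 partner Itgad at -0.091 ± 0.12. Itgad averaged 0.840 FPKM, far below its chromosome 7 neighbours.

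The list of other ligands and counter-receptors held 25 genes, of which 20 were tested, and none passed, with 6 fitted higher and 14 lower. Without DMSO replicate 2, or without both libraries numbered 2, 10 were fitted higher and 10 lower. An unadjusted edgeR p under 0.05 was reached by 3 of the 20, against 6.21% of all genes. C3, whose fragment iC3b binds CD11b/CD18 and CD11c/CD18, was at 608, 634 and 628 CPM in DMSO and at 562, 533 and 561 CPM in RIP1i, with no overlap. Its log2 fold change was -0.18 ± 0.043 (SE; edgeR adjusted p = 0.777). Rdx, which encodes radixin, a linker of ICAM tails to actin and not a ligand, had 0.14 ± 0.047, the laminin chain gene Lama5 -0.51 ± 0.18, and Vcam1, the ligand of alpha4 integrins, -0.27 ± 0.12 (adjusted p = 0.777 each). Spp1, which encodes osteopontin, was the most abundant at 2639 FPKM, with 0.078 ± 0.17. The list median was -0.081, and it was -0.0089 without DMSO replicate 2 and -0.018 without both libraries numbered 2. The 7 stromal markers, none of which is in this list, were all fitted lower, with a median of -0.41. None of them reached an unadjusted edgeR p under 0.05. Their sums overlapped between the groups, with 83.7 to 336 CPM in DMSO and 74.8 to 222 CPM in RIP1i. The part of stromal RNA in the matrix genes of the list was not tested.

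Integrin activation turns the receptor from a bent to an extended form through talin and kindlin. Of 19 genes of this step 18 were tested, and none passed, with 7 fitted higher and 11 lower. These counts were 4 and 14 without RIP1i replicate 2, and 9 and 9 without RIP1i replicate 3 or without both libraries numbered 2. An unadjusted edgeR p under 0.05 was reached by 4 of them, and 6 had groups that did not overlap, where all genes gave 6.21% and 13.5%. Rasgrp2, the exchange factor for Rap1 known as CalDAG-GEFI, was at 7.76, 8.89 and 7.27 CPM in DMSO and at 6.37, 5.37 and 5.70 CPM in RIP1i, a log2 fold change of -0.45 ± 0.11 (SE; edgeR adjusted p = 0.777). Apbb1ip, which encodes RIAM, the adaptor that brings talin to Rap1, had -0.22 ± 0.081, and Fyb, the adaptor ADAP, -0.26 ± 0.053. Rap1a, the small GTPase between them, lay on the other side at 0.16 ± 0.062. Flna, a filamin that competes with talin for beta tails, was the most abundant of the list at 155 FPKM and had -0.015 ± 0.054.

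Signalling from the occupied receptor gave no call. All 23 genes of that list were tested, 14 fitted higher and 9 lower, where 51% of all genes were fitted higher. Without DMSO replicate 1 the counts were 11 and 12, and without DMSO replicate 2 they were 17 and 6. An unadjusted edgeR p under 0.05 was reached by 3 of the 23, against 6.21% of all genes. The 3 genes were Lims1, which encodes PINCH1, at 0.16 ± 0.050 (SE), Parvb, a parvin gene, at -0.23 ± 0.095, and Actn1, an actinin gene, at 0.095 ± 0.040, and the exchange factor gene Vav3 had 0.11 ± 0.052. Tyrobp, the adaptor DAP12, stood highest at 1554 FPKM with 0.043 ± 0.042. Of 10 genes that recycle integrins through endosomes 8 were tested, 6 fitted higher and 2 lower, none at p under 0.05 in edgeR. The recycling GTPase genes Rab11a, Rab21 and Arf6 had 0.11 ± 0.053, 0.096 ± 0.052 and 0.056 ± 0.044, and Rasa1, a Ras GTPase-activating protein gene, had 0.073 ± 0.050.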

How the data were processed

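The tools that the submitters' processing notes name, against build mm10, are DESeq2 1.14.0, Subread 1.4.6-p3 with featureCounts, STAR 2.5.3a and CASAVA 1.8.4. What each did, which annotation was used and how strand and multi-mapping reads were handled is not given in the sources used here. The authors deposited raw read counts per gene and FPKM values for the same 6 libraries. The FPKM library factors matched median-of-ratios size factors within 0.000162%, so both tables hold the same reads. Groups came from the sample titles. The members and gene lists were chosen with earlier results of these data known.

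Counts were filtered with filterByExpr (minimum count 10, minimum total 15), TMM scaled and tested in edgeR 4.0.16 (R 4.3.3) by quasi-likelihood, 2-sided, treatment as the only term, Benjamini-Hochberg adjusted p under 0.05 over all 14857 genes. SEs came from the F statistic. Alternatives used limma 3.58.1 and DESeq2 1.42.0. The pipeline was tested on simulated data. Chain ratios used exact permutation tests. All 10 members are named. Of each list, the 4 genes of smallest p and the most abundant gene are named, and for the members the 3 genes of nearest profile. Coordinates and transcript lengths are from GENCODE M21 (mm10). Lengths behind the FPKM were set by the median ratio to M21 exon lengths over the members.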

Additional observations from a re-analysis of the deposited data

How the results depend on the processing

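No member passed under any of 17 alternatives (adjusted p from 0.602 to 1.00), and 159 of 170 member estimates kept their sign. The exceptions concern Itga4, Itga5 and Itgb7. Leaving out each library in turn gave -0.076 to 0.11 for Itga4, -0.060 to 0.044 for Itga5 and -0.048 to 0.15 for Itgb7. Without both libraries numbered 2, Itga4 was at -0.12 and Itgb7 at -0.096, and with upper-quartile scaling Itga5 was at -0.0029. The cause was not tested.

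The count of genes past the threshold was 0 except for DESeq2, with 1 (Arhgap4), and limma-trend on log2(FPKM + 1) with no filter, with 4 (CT010471.2, Gm26491, Llph-ps1 and Mir6984), all named after their values were seen. It was 0 at thresholds of 0.01 and 0.1.

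The replicate number does not pair the cultures by the labels, and same-numbered libraries did not deviate together (correlations of 0.0058, -0.53 and -0.48). Differently numbered libraries of the 2 groups gave correlations from -0.31 to 0.60. The highest were DMSO replicate 3 with RIP1i replicate 2 (0.60) and DMSO replicate 2 with RIP1i replicate 3 (0.40). Libraries thus shared deviations across groups that the replicate number does not follow. With the replicate number as a block 0 genes passed, and Icam1 had 0.13 ± 0.046 (adjusted p = 0.998). The 66 alternative values of the 6 chain measures kept their sign, but adding Itgad and Itgav ended the separation of the groups in the ratio of alpha chains to Itgb1 (exact permutation p = 0.3). With 3 against 3 libraries no exact p below 0.1 was possible. The order of levels kept 8 of 9 pairs in every library when libraries were left out and 7 with the longest coding transcript.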

Other observations

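For each member, the genes with the most similar course over the 6 libraries were listed by the root mean square distance between standardised log2 CPM profiles, among 8347 genes averaging 10 CPM or more. With 6 libraries and so many genes, close matches are easily found, and the lists are descriptions. Icam1 lay nearest to the zinc transporter gene Slc39a11 (distance 0.154), then Dnajc9 (0.190) and Skp2 (0.194). Itgax lay nearest to Vdac1 (0.077), Anln (0.107) and Serpinb8 (0.120), and Itgb1 to Strn (0.109), Acsl3 (0.114) and Enoph1 (0.125). Itgb2 lay nearest to the clathrin light chain gene Cltb (0.122), then Rtca (0.161) and Lyrm4 (0.161), and Itgam to Rad9a (0.157), Eif4e2 (0.208) and Siva1 (0.211). For Itgal the nearest were the integrin adaptor gene Fyb (0.119), Jmjd8 (0.169) and Nolc1 (0.176). Itga4 lay nearest to the neutrophil collagenase gene Mmp8 (0.147), Lrp6 (0.152) and Kynu (0.187), Itga5 to Trim44 (0.190), Filip1l (0.207) and Ogfod1 (0.259), and Itga6 to Lair1 (0.157), Tns4 (0.196) and Psap (0.253). The closest match of all was Mob3a to Itgb7 (0.035), followed for that gene by Pold3 (0.153) and Ramp1 (0.156).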
